A study of Rattus norvegicus with 44 samples.

Results

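Interferon-induced genes were followed in the choroid plexus and blood of rats after overheating or amphetamine. The 7 genes were Bst2, Irf1, Mx1, Mx2, Irf7, Isg15 and Oas1a, chosen with earlier results of these data known. The genes were found by symbol or older synonym in the array's annotation. They were read by 8 probes, among 10412 genes measured in all, and Bst2 alone had more than 1 probe. The probe with the highest mean intensity stood for each gene.

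The animals were male Sprague-Dawley rats of the NCTR strain, 3 months old. They had received saline, environmentally-induced hyperthermia (EIH) or neurotoxic doses of amphetamine (AMPH), and tissue was taken 3 h or 1 day later. The 11 groups held 4 single-dye Agilent arrays each, 44 in all. At 3 h both tissues had saline, EIH and AMPH groups. At 1 day blood had all 3 treatments and choroid plexus had EIH and AMPH, and no choroid plexus saline group of 1 day was analysed here. In choroid plexus, RNA of 3 rats was pooled for an array, whereas a blood array came from 1 rat, so a pool already averages over animals. The study asked about damage and protective responses in choroid plexus and immune responses in blood.

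Type I interferons bind the receptor made of Ifnar1 and Ifnar2, and signalling from it reaches interferon-stimulated response elements in front of target genes. Interferon-gamma has a receptor of its own and acts through gamma-activated sites. The choroid plexus is the epithelium that secretes cerebrospinal fluid and separates it from blood. Among the 7 genes, Irf1 and Irf7 are transcription factors, and Irf7 is a main inducer of the interferon genes. Mx1 and Mx2 are dynamin-like GTPases that block virus replication, Oas1a is an oligoadenylate synthetase that senses double-stranded RNA, and Isg15 is a ubiquitin-like protein that is conjugated to other proteins. Bst2, also called tetherin, is a membrane protein that holds budding virus particles on the cell surface.

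The upstream sequences of Bst2, Irf1 and Oas1a are shown because all 3 genes carry interferon motifs there and their test results after EIH differed. At 3 h Bst2 passed the test described below in both tissues, Irf1 in blood only and Oas1a in neither. The genes were not tested against each other, and no link between motifs and response was tested. RefSeq promoters of build GRCr8 were found for 5 of the 7 genes, each of 300 bases from 250 before to 50 after the start site, and those of Mx2 and Isg15 were not used here. Motifs were searched on both strands: the core of the interferon-stimulated response element (GAAANNGAA, in 9.71% of 33469 rat promoters of the same length), the gamma-activated site (TTCNNNGAA, in 8.87%), and pairs of heat shock units (TTCNNGAA in 8.77% and GAANNTTC in 8.59%). A run of 3 alternating heat shock units, added to the search after the pairs had been seen, was present in 0.798% of promoters in either order. Bases are numbered backwards from the start site, and the 250 bases before it are printed 5′ to 3′ on the gene's strand, with every match in capitals.
Bst2, chr16:18254968-18255217, minus strand: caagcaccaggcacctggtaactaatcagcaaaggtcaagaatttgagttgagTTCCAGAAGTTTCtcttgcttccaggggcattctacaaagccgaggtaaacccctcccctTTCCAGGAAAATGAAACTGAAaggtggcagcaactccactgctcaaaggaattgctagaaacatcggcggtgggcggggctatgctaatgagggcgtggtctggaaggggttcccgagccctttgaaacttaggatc
Irf1, chr10:38417685-38417934, plus strand: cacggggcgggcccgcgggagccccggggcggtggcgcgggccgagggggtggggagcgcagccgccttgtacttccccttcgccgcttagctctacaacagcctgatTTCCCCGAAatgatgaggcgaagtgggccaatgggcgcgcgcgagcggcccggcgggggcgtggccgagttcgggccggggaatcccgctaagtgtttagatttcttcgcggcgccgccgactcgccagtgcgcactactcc
Oas1a, chr12:41330216-41330465, plus strand: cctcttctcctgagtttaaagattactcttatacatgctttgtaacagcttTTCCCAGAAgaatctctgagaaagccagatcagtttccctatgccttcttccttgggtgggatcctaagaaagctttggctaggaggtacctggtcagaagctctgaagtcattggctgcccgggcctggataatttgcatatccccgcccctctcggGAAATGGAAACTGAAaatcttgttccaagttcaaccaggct

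Bst2 held 2 overlapping response element cores, at -131 and -125, and a gamma-activated site at -137 that overlaps the first of them. Upstream of these, at -197, lay the 3 heat shock units TTCCAGAAGTTTC, which contain the pairs that start at -197 and -192. Oas1a also held 2 overlapping response element cores, at -41 and -35, and a gamma-activated site at -199, but no heat shock pair. Of all promoters, 0.759% held 2 or more response element cores. Irf1 held a gamma-activated site at -142, and Irf7 held 1 response element core on the opposite strand at -68. The window of Mx1 held none of these letters. A match describes the sequence and shows no binding.

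Values are log2 of the deposited intensity, and differences are log2 differences with their standard error from limma, a linear model across all genes. The threshold for calling a gene was an adjusted p of 0.05, with Benjamini-Hochberg adjustment over every gene tested in the comparison. Array medians ran from 139 to 146 in the 24 arrays of 3 h and from 165 to 171 in the 20 arrays of 1 day, so the times appear to have been scaled separately. Epithelial markers (11 genes, among them Ttr and Kl) summed to 286626 to 313557 intensity units on all but 1 choroid plexus array and to 4512 to 17389 in blood. The exception was 1 AMPH pool of 1 day, replicate 2, with 129498. The same pool had the highest summed macrophage, erythroid and platelet markers of the choroid plexus arrays, at 63211, 14106 and 14146. Titles call the 4 EIH pools of choroid plexus at 1 day controls, against their source and treatment labels, which were followed. Of these pools 3 share a rat number with another pool, and 3 of the 4 EIH blood rats of 1 day are numbered among the rats of the EIH pools of that day. In all, 5 rat numbers recur over 7 pools, and 3 of these numbers stand in pools of different groups. Among the EIH pools of 1 day, replicate 1, the only 1 with no recurring number, stood apart in summed stromal and meningeal markers, at 136762 against 22205 to 31406 in the other 3. Replicates are numbered by accession and have no order.

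**Figure D1:**
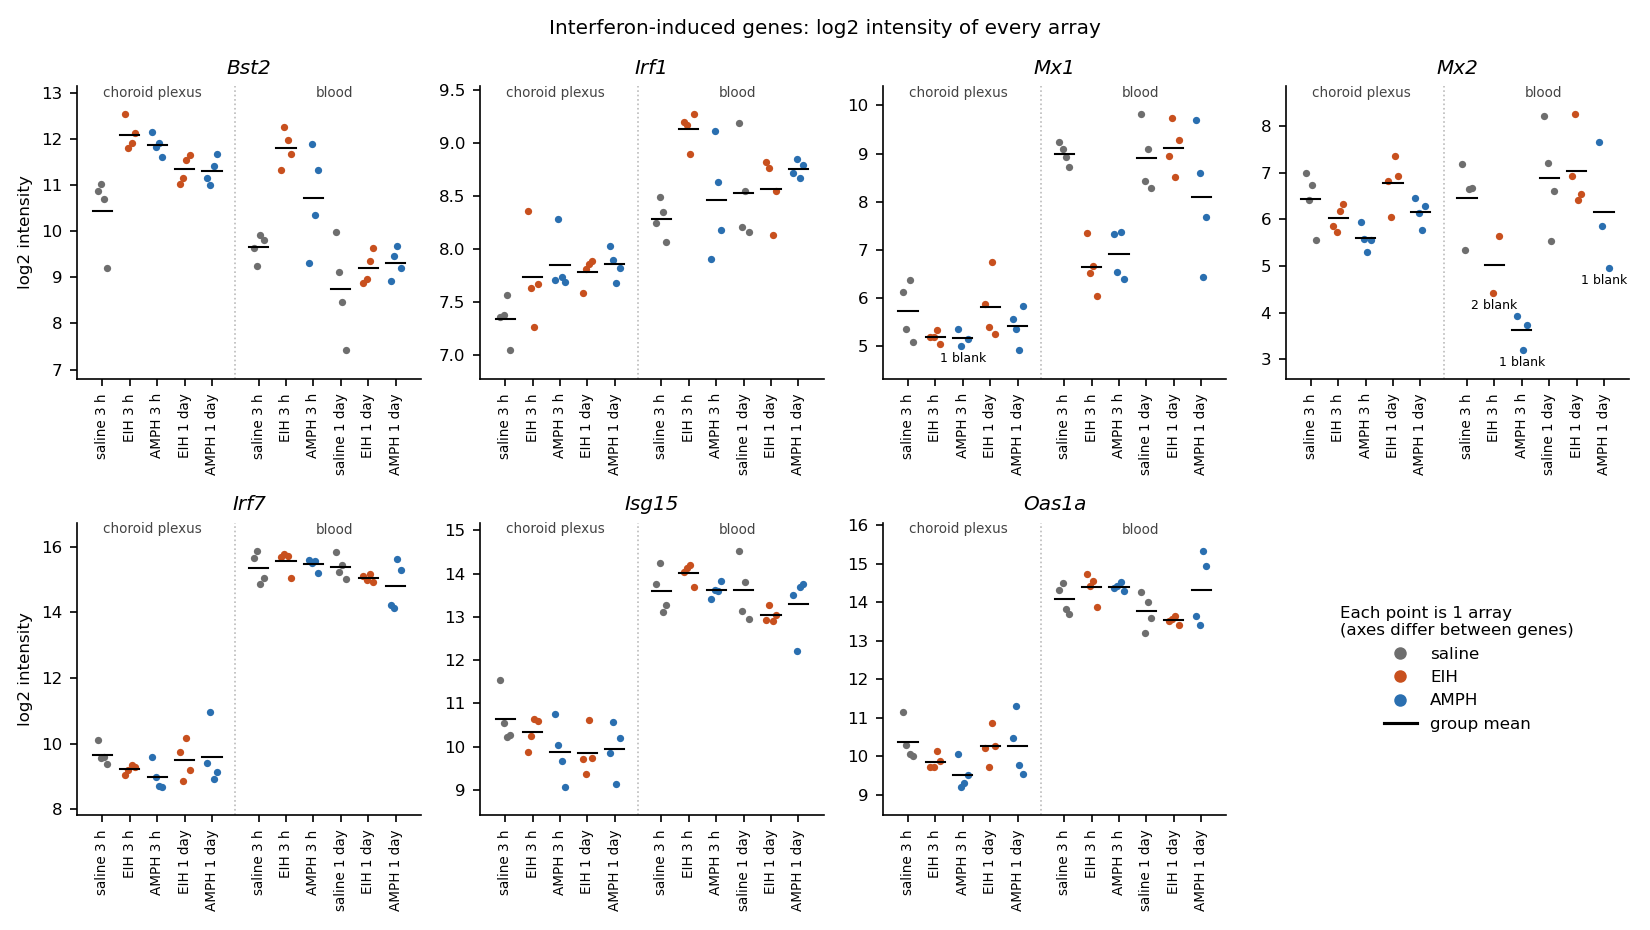
Log2 intensity (vertical axis, scaled separately per gene) of the 7 genes on every array, by group, with choroid plexus left and blood right of the dotted line. Points are arrays, bars are group means, and blank cells are counted. Bst2 is higher at 3 h after EIH in both tissues, Mx1 is lower at 3 h in blood after EIH and AMPH, and Irf7, Isg15 and Oas1a lie higher in blood than in choroid plexus in every group.

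In saline rats at 3 h, 5 of the 7 genes were lower in choroid plexus than in blood, where 56.2% of 9925 genes tested were called in either direction. Irf7 was 9.66 ± 0.33 (SD, n = 4) in choroid plexus and 15.36 ± 0.49 in blood, a difference of -5.71 ± 0.28 (52.2-fold lower, limma adjusted p = 1.42e-06). Blood values of Irf7 ran up to 15.88, close to the highest value in the file, 16.0, and whether differences are compressed there was not tested. Oas1a was lower by 13.1-fold (-3.71 ± 0.31, adjusted p = 2.18e-05), Mx1 by 9.62-fold (-3.27 ± 0.31, adjusted p = 4.22e-05) and Isg15 by 7.75-fold (-2.96 ± 0.37, adjusted p = 0.000215). Irf1 was lower by 1.93-fold (-0.95 ± 0.16, adjusted p = 0.00134). For these 5 genes the arrays of the tissues did not overlap, and how many of all genes separate in this way was not counted.

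Bst2 and Mx2 were not called between the tissues. Bst2 was 10.45 ± 0.84 in choroid plexus and 9.65 ± 0.29 in blood (difference 0.79 ± 0.41, 95% interval -0.16 to 1.74, adjusted p = 0.137). Without saline pool replicate 4 of choroid plexus, the dimmest for Bst2, the difference was 1.21 and was called (adjusted p = 0.00172), as it was with the mean over both Bst2 probes (1.22, adjusted p = 0.029). Mx2 was somewhat below the middle of all genes in both tissues, at percentiles 40.5 and 44.6. It had 6.43 ± 0.62 and 6.47 ± 0.79 (difference -0.04 ± 0.45, adjusted p = 0.953), a sign that changed under other settings. Bulk samples cannot tell fewer cells of a type from less RNA per cell.

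Bst2 rose in choroid plexus at 3 h after EIH. The saline pools read 10.87, 11.02, 10.69 and 9.20, and the EIH pools 12.53, 11.80, 11.91 and 12.12. All 4 EIH pools lay above all saline pools. The difference was 1.64 ± 0.31 (3.12-fold, n = 4 and 4, limma adjusted p = 0.032), and the exact two-sided permutation test of Bst2 alone gave p = 0.0286, the smallest that 4 against 4 allows. Bst2 was chosen with earlier results of these data known, so its p-values here, after AMPH and in blood are no independent support. It was the 1 gene of the 7 that was called, where 0.341% of 10261 genes passed. The call was not stable. It was lost without saline replicate 1 (adjusted p = 0.0518), 3 (0.0606) or 4 (0.0931), without EIH replicate 1 (0.128), 2 (0.101) or 4 (0.0974), with only the compared groups (0.109) and with only the 3 h arrays (0.0835). Without the pools that share a rat number it was 1.33 (adjusted p = 0.328). Saline replicate 4, the lowest saline pool for Bst2, is among these pools, so that fit overlaps with the one without this replicate. It shares a rat number with AMPH replicate 2 of 1 day, the pool with low epithelial markers. Its summed B cell markers were 886 against 79 to 113 in the other saline pools, with blank cells left out. The Bst2 difference after EIH stayed between 1.23 and 1.84 in all alternatives run. The summed stromal and meningeal markers (7 genes) also did not overlap, at 34930 to 42149 after EIH against 22505 to 30539 in saline, with 0 of 7 called. Cd14 was the 1 called among the 10 monocyte and macrophage markers (1.10 ± 0.22, adjusted p = 0.0381), whose summed level overlapped, 9974 to 12310 against 11737 to 12609. Their part in the result was not tested.

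After AMPH the choroid plexus pools at 3 h read 12.14, 11.83, 11.92 and 11.61 for Bst2, again all above the saline pools. The difference of 1.43 ± 0.31 (2.69-fold) missed the threshold (limma adjusted p = 0.0651, exact permutation p = 0.0286). Of the 7 genes 0 were called, where 0.156% of 10263 genes were. At an unadjusted p under 0.05 it was 4 of 7, beside 1528 of the 10263 genes. The Bst2 difference passed without AMPH replicate 4 of 3 h (1.52, adjusted p = 0.0267) and without the AMPH pool of 1 day that stands apart (1.43, adjusted p = 0.032). In the other leave-outs of 1 array it was not called, falling to 1.01 without saline replicate 4 (adjusted p = 0.126) and reaching an adjusted p of 0.222 without AMPH replicate 3. Without the pools that share a rat number it was 1.03 (adjusted p = 0.148). AMPH and EIH differed in Bst2 by -0.22 ± 0.31 (95% interval -0.88 to 0.45). Between them 0 of 7 genes were called, where 0.00973% of 10273 genes were. At an unadjusted p under 0.05 it was 0 of 7, beside 291 of the 10273. Without the pools that share a rat number that Bst2 difference was -0.30 (adjusted p = 0.901). Summed neutrophil markers were higher in the AMPH pools than in the saline pools, at 543 to 800 against 256 to 482 intensity units, and summed endothelial markers lower, at 4629 to 5645 against 6215 to 8308, with 0 of 7 and 0 of 8 called. Summed natural killer cell markers were lower too, at 98 to 190 against 228 to 473, with 0 of 6 called. Their part in the result was not tested.

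In blood Bst2 rose at 3 h after EIH, and the spread after AMPH was wide. Saline rats read 9.64, 9.25, 9.91 and 9.82, and EIH rats 11.33, 12.26, 11.96 and 11.67. The EIH rats lay above every saline rat. The difference was 2.15 ± 0.48 (4.44-fold, limma adjusted p = 0.00506) and was called in all 17 alternatives run (adjusted p from 0.000583 to 0.019). AMPH rats read 9.30, 11.89, 10.34 and 11.32, and replicate 1 lay among the saline rats while the other 3 lay above them. That difference was 1.06 ± 0.48 (95% interval 0.06 to 2.07, adjusted p = 0.197). It was 1.53 and called without AMPH replicate 1 (adjusted p = 0.0461), but 0.67 without AMPH replicate 2 (adjusted p = 0.482), and it was called in 1 of 8 fits that left out a rat.

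The second Bst2 probe was dimmer and moved alike. In choroid plexus at 3 h it had means of 9.68 ± 0.76 in saline, 11.23 ± 0.29 after EIH and 11.05 ± 0.19 after AMPH. In blood it had 8.03 ± 0.30, 10.37 ± 0.41 and 9.26 ± 1.12 for the same treatments. On this probe too, the EIH and saline arrays of 3 h did not overlap in either tissue.

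Irf1, the other member that rose, did so in blood after EIH. Saline rats read 8.25, 8.49, 8.35 and 8.07 and EIH rats 9.20, 9.17, 8.90 and 9.28, with no overlap. The difference was 0.85 ± 0.25 (1.8-fold, limma adjusted p = 0.0294). The adjusted p was over 0.05 without saline replicate 1 (0.07), 3 (0.0559) or 4 (0.0776), without EIH replicate 1 (0.0575), 2 (0.0588) or 4 (0.0782), and with only the 3 h arrays (0.0531). AMPH rats read 7.91, 9.12, 8.64 and 8.19, on both sides of the saline rats (0.17 ± 0.25, adjusted p = 0.759).

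In choroid plexus Irf1 was near the middle of all genes (percentile 52.0 in saline pools) and not called. Saline pools read 7.36, 7.38, 7.57 and 7.05, EIH pools 8.36, 7.63, 7.27 and 7.67, and AMPH pools 7.71, 8.29, 7.74 and 7.69. The AMPH pools lay above all saline pools (0.52 ± 0.20, limma adjusted p = 0.23), and the EIH pools overlapped them (0.39 ± 0.20, adjusted p = 0.413).

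Mx1 fell in blood at 3 h after both treatments. Saline rats read 9.24, 9.10, 8.93 and 8.73. EIH rats read 7.36, 6.52, 6.66 and 6.04, and AMPH rats 7.34, 6.54, 7.37 and 6.39. All 8 treated rats lay below all saline rats. The differences were -2.36 ± 0.51 after EIH (5.12-fold lower, limma adjusted p = 0.00388) and -2.09 ± 0.51 after AMPH (4.26-fold lower, adjusted p = 0.0146). Both comparisons use the same saline rats. After EIH the call held in all 17 alternatives, and after AMPH in 16 of 17, the exception being without AMPH replicate 4 (-1.92, adjusted p = 0.0529).

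Mx2 in blood at 3 h was low in the measured range and partly blank after both treatments. Its mean in saline rats stood at percentile 44.6 of all genes. From the values present, it stood at 16.9 after EIH and 1.4 after AMPH. Saline rats read 7.19, 5.35, 6.64 and 6.68. After AMPH 3 rats read 3.93, 3.19 and 3.74 and 1 was blank, and after EIH 2 rats read 4.42 and 5.65 and 2 were blank. The fit drops blanks, so the lowest levels may be missing. On the values present, Mx2 fell after AMPH by 2.85 ± 0.69 (7.21-fold lower, n = 3 and 4, limma adjusted p = 0.0174) with no overlap. The call was lost without saline replicate 1 (adjusted p = 0.0581) or AMPH replicate 3 (0.051) or 4 (0.0529). After EIH the difference was -1.44 ± 0.78 (n = 2 and 4, adjusted p = 0.27).

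Irf7, Isg15 and Oas1a did not pass the test in blood at 3 h after either treatment. For Irf7 saline rats read 15.67, 15.88, 14.86 and 15.04, EIH rats 15.68, 15.78, 15.72 and 15.05, and AMPH rats 15.59, 15.51, 15.56 and 15.21. Oas1a read 14.32, 14.50, 13.84 and 13.71 in saline rats, 14.73, 14.43, 14.57 and 13.89 after EIH, and 14.38, 14.42, 14.53 and 14.29 after AMPH. Isg15 read 13.77, 14.24, 13.12 and 13.28 in saline rats, 14.04, 14.13, 14.19 and 13.70 after EIH, and 13.41, 13.63, 13.60 and 13.82 after AMPH. The groups overlapped for all 3 genes. After EIH the differences were 0.19 ± 0.31 for Irf7, 0.31 ± 0.34 for Oas1a and 0.41 ± 0.34 for Isg15. After AMPH they were 0.10 ± 0.31, 0.32 ± 0.34 and 0.02 ± 0.34, and small enough for Irf7 and Isg15, and for Irf1, to change sign when 1 rat was left out.

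In blood at 3 h the count was thus 2 members higher and 1 lower after EIH (3 of 7, where 12.5% of 9893 genes were called). After AMPH 0 were higher and 2 lower (2 of 7, where 8.37% of 9863 genes were called). Between AMPH and EIH in blood 0 of 7 were called, where 0.0397% of 10068 genes were. At an unadjusted p under 0.05 it was 2 of 7, beside 953 of the 10068. Bst2 differed between the treatments by -1.09 ± 0.48 (95% interval -2.09 to -0.08, adjusted p = 0.481).

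**Figure D2:**
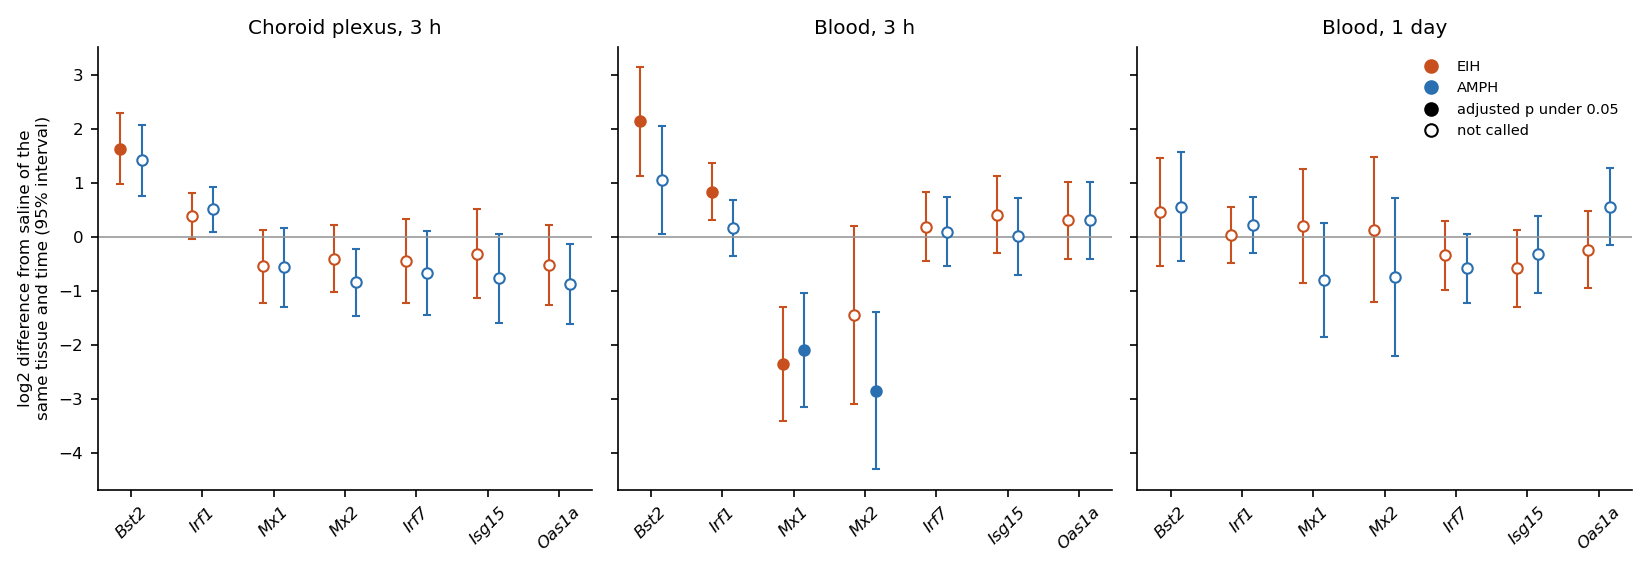
Log2 difference from saline of the same tissue and time (vertical axis) for the 7 genes, with 95% intervals from limma, orange for EIH and blue for AMPH. Filled points passed an adjusted p of 0.05. Bst2 lies above 0 at 3 h in both tissues (1.64 and 2.15 after EIH), Mx1 lies at -2.36 and -2.09 in blood at 3 h, and no point is filled at 1 day.

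In choroid plexus at 3 h the other 5 members were lower on average after both treatments, and 0 of the 5 were called. Irf7 read 10.13, 9.55, 9.59 and 9.37 in saline pools, 9.06, 9.19, 9.34 and 9.29 after EIH, and 9.59, 8.98, 8.70 and 8.69 after AMPH. The EIH pools of Irf7 lay below all saline pools (-0.44 ± 0.37, limma adjusted p = 0.656), and the AMPH pools overlapped them (-0.67 ± 0.37, adjusted p = 0.425). Oas1a read 11.16, 10.30, 10.05 and 10.01 in saline pools, 9.73, 9.72, 10.13 and 9.89 after EIH (-0.52 ± 0.35, adjusted p = 0.572), and 10.06, 9.21, 9.30 and 9.51 after AMPH (-0.87 ± 0.35, adjusted p = 0.258). Isg15 read 11.54, 10.55, 10.23 and 10.27 in saline pools, 9.89, 10.25, 10.64 and 10.60 after EIH (-0.30 ± 0.39, adjusted p = 0.809), and 10.75, 10.05, 9.66 and 9.07 after AMPH (-0.76 ± 0.39, adjusted p = 0.384). Saline replicate 1 was the highest of its group for all 3 genes. Mx1 was dim, at 5.09 to 6.37 in saline pools, 5.06 to 5.34 after EIH (-0.54 ± 0.32, adjusted p = 0.51), and 5.01 to 5.35 in 3 AMPH pools with 1 blank (-0.56 ± 0.34, adjusted p = 0.48). Mx2 ran from 5.57 to 7.0 in saline, 5.74 to 6.34 after EIH (-0.40 ± 0.30, adjusted p = 0.609) and 5.30 to 5.94 after AMPH (-0.84 ± 0.30, adjusted p = 0.193). For these 5 genes the differences had the sign opposite to that of Bst2 in every alternative run, and both treatments were set against the same saline pools. Without saline replicate 1 the EIH differences came down to -0.26 for Oas1a, -0.21 for Mx2 and -0.005 for Isg15.

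The tissues were compared directly in their response at 3 h. For Bst2 the EIH effect in choroid plexus minus that in blood was -0.51 ± 0.59 (95% interval -1.71 to 0.70, limma adjusted p = 0.706). For Mx1 it was 1.82 ± 0.62 (adjusted p = 0.0756), a larger mean decrease in blood that was not called. Saline levels of Mx1 were 5.73 ± 0.61 in choroid plexus and 9.0 ± 0.22 in blood. Whether the low level in choroid plexus limits a fall there was not tested. Of the 7 genes, 0 were called for EIH, where 6% of 9813 genes were, and 0 for AMPH, where 3.11% of 9788 genes were. At an unadjusted p under 0.05 it was 1 of 7 for EIH, beside 1970 of all genes, and 3 of 7 for AMPH, beside 1755. For AMPH the differences were 1.53 ± 0.65 for Mx1 (adjusted p = 0.197) and 2.01 ± 0.74 for Mx2 (adjusted p = 0.13). Of the 24 blood rats 17 carry a number that a choroid plexus pool also carries, 16 of them in a pool of their own treatment and time. The other 1 is a saline rat of 1 day whose number stands in a saline pool of 3 h. With a shared number taken as a random block, Mx1 passed for EIH (1.91, adjusted p = 0.0463), and with only the 3 h arrays it passed for EIH (adjusted p = 0.0101) and AMPH (0.0441), as did Mx2 for AMPH (0.0392).

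At 1 day in blood 0 of the 7 genes were called after EIH, where 0.0512% of 9762 genes were, after AMPH, where 1.95% of 9797 were, or between them, where 0% of 9848 were. At an unadjusted p under 0.05 the counts were 0, 0 and 1 of 7, beside 987, 1732 and 1149 of all genes. Mx1 read 9.82, 8.44, 9.09 and 8.28 in saline rats, 8.96, 9.75, 8.51 and 9.28 after EIH, and 9.69, 8.60, 6.45 and 7.69 after AMPH. The EIH rats lay within the saline range (0.22 ± 0.51, limma adjusted p = 0.913), while 2 of the 4 AMPH rats lay below it (-0.80 ± 0.51, adjusted p = 0.438). AMPH and EIH differed in Mx1 by -1.02 ± 0.51 (adjusted p = 0.451). Bst2 read 9.99, 9.12, 8.46 and 7.42 in saline rats, 8.89, 8.96, 9.35 and 9.64 after EIH, and 8.92, 9.46, 9.68 and 9.20 after AMPH. The saline rats alone spanned the range of both treatments (0.47 ± 0.48 for EIH and 0.57 ± 0.48 for AMPH). The largest EIH difference among the 7 genes was -0.57 ± 0.34 for Isg15 (adjusted p = 0.579).

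The other genes at 1 day in blood varied between rats within a group. After AMPH Irf7 read 14.21, 14.13, 15.62 and 15.29 and Oas1a 13.65, 13.41, 15.34 and 14.94. Replicates 3 and 4 were the higher pair for both genes and the lower pair for Mx1. Isg15 read 13.52, 12.21, 13.69 and 13.75 in the same rats, with replicate 2 apart. Mx2 ran from 5.54 to 8.23 in saline rats, 6.42 to 8.26 after EIH and 4.96 to 7.67 in the 3 AMPH rats with a value, replicate 3 being blank. Irf1 ran from 8.17 to 9.19, 8.14 to 8.83 and 8.67 to 8.85. All these ranges overlapped between treatments.

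The change in the EIH effect from 3 h to 1 day was called for 1 of the 7 genes, Mx1, where 8.62% of 9483 genes were called. Its effect was higher at 1 day than at 3 h by 2.57 ± 0.72 (limma adjusted p = 0.032). Leaving out 1 rat kept that call in 8 of 16 fits, with adjusted p from 0.0232 to 0.065. It was lost without 3 h saline replicate 1 (0.0649), 2 (0.0542) or 3 (0.0501), 3 h EIH replicate 4 (0.065), 1 day saline replicate 2 (0.0542) or 4 (0.0576), or 1 day EIH replicate 2 (0.0531) or 4 (0.0611). For Bst2 the effect at 1 day minus that at 3 h was -1.69 ± 0.68 (adjusted p = 0.125), and passed without 1 day saline replicate 4 (-2.13, adjusted p = 0.0446). For AMPH 0 of 7 were called, where 0.379% of 9491 genes were, with 1.29 ± 0.72 for Mx1 and 2.11 ± 0.97 for Mx2 (adjusted p = 0.448 and 0.36). At an unadjusted p under 0.05 it was 1 of 7, beside 1282 of the 9491.

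Choroid plexus at 1 day could be set only against saline at 3 h, so time and the scaling of the arrays cannot be told apart from treatment. Bst2 read 11.01, 11.15, 11.54 and 11.66 after EIH and 11.15, 11.002, 11.41 and 11.66 after AMPH. The lowest pool of each group lay inside the saline range and the highest inside the range of the AMPH pools of 3 h. The differences from saline were 0.89 ± 0.31 (limma adjusted p = 0.313) and 0.86 ± 0.31 (adjusted p = 0.212). Without saline replicate 4 they were 0.48 (adjusted p = 0.848) and 0.44 (adjusted p = 0.464). Without the pools that share a rat number they were 0.15 (adjusted p = 0.853), with 1 EIH pool remaining that is taken to vary like the other groups, and 0.54 (adjusted p = 0.413). Isg15 differed by -0.79 ± 0.39 and -0.70 ± 0.39. Irf1 read 7.59 to 7.89 after EIH and 7.68 to 8.03 after AMPH, all above the saline pools, with differences of 0.45 and 0.52 (adjusted p = 0.379 and 0.224), which ran from 0.15 to 0.53 and from 0.28 to 0.59 over the alternatives. The median of all genes was itself 0.17 higher after EIH and 0.11 higher after AMPH in these comparisons. With equal array medians the Bst2 differences were 0.67 and 0.62. Of the 7 genes 0 were called against saline after EIH, where 0% of 10267 genes were (1259 at an unadjusted p under 0.05), or after AMPH, where 0.0294% of 10194 were (1721 at an unadjusted p under 0.05). At an unadjusted p under 0.05 it was Bst2 and Irf1 in both comparisons. The pool that stands apart read 10.96 for Irf7 and 11.32 for Oas1a, the highest of its group for both, and 0 of 7 were called without it as well. Between AMPH and EIH of 1 day 0 were called, where 0% of 10204 genes were (554 at an unadjusted p under 0.05). The largest such difference was -0.62 ± 0.29 for Mx2, and it was -0.65 (adjusted p = 0.409) without the pools that share a rat number.

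The order of the group means in choroid plexus put Bst2 highest after EIH at 3 h (12.09 ± 0.32), then AMPH at 3 h (11.87 ± 0.22), EIH at 1 day (11.34 ± 0.31), AMPH at 1 day (11.31 ± 0.29) and saline (10.45 ± 0.84). The steps from AMPH at 3 h to EIH at 1 day and from AMPH at 1 day to saline exceeded the larger SD of the neighbours. In blood it was EIH at 3 h (11.80 ± 0.40), AMPH at 3 h (10.71 ± 1.14), saline at 3 h (9.65 ± 0.29), AMPH at 1 day (9.32 ± 0.33), EIH at 1 day (9.21 ± 0.35) and saline at 1 day (8.75 ± 1.08). Only the step from saline at 3 h to AMPH at 1 day exceeded the larger SD there, and it crosses the scaling sets. For Irf7 no neighbours in either tissue differed beyond the larger SD. Mx1 in blood ran from EIH at 1 day (9.12 ± 0.52), saline at 3 h (9.0 ± 0.22), saline at 1 day (8.91 ± 0.70) and AMPH at 1 day (8.11 ± 1.38) down to AMPH (6.91 ± 0.52) and EIH at 3 h (6.65 ± 0.55), with every step within the larger SD.

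Genes with the most similar pattern to Bst2 and Irf7 were listed by Pearson correlation over the arrays of a tissue, after centring within each time. The arrays share treatment groups and, in part, rats, so these are descriptions with no test. For Bst2 they were Sympk (0.929), Elavl1, Fzd9, Tgds and Smad4 over 20 choroid plexus arrays and 7087 genes, and Ythdf1 (0.910), Stip1 (0.876), Hspd1 (0.867), Nr1h2 and Gcnt1 over 24 blood arrays and 6476 genes. No member was in either list. By rank (Spearman) correlation these neighbours of Bst2 ran from 0.74 (Elavl1) to 0.901 (Tgds) in choroid plexus. In blood they ran from 0.832 to 0.869. The part of saline replicate 4, the lowest for Bst2, in the choroid plexus values was not tested. For Irf7 the most similar genes were Oasl2 (0.940), the member Oas1a (0.905), Slamf9, Pacs1 and Ccnb2 in choroid plexus, and Ube2l6 (0.812), Lgals9, Lgals3bp, Oas1i and Ifi27 in blood. Bst2 itself correlated with Irf1 at 0.657 in choroid plexus and 0.716 in blood, and with Irf7 at -0.292 and 0.10. Irf7 correlated with Isg15 at 0.806 and 0.716.

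Other genes of the pathway were read from lists of 113 genes, of which 80 were measured. In choroid plexus at 3 h 0 of 79 tested were called after EIH or after AMPH, with median differences of 0.04 and 0.01 beside 0.02 and 0.03 over all genes. In blood after EIH 4 were higher and 10 lower of 79, where 12.5% of all genes were called in either direction, with a median of 0.01 beside 0.08. After AMPH 1 was higher and 4 lower, where 8.37% were called, with a median of -0.15 beside 0.01. Of 31 antiviral effectors 4 were called after EIH and 2 after AMPH, shares close to these backgrounds. After EIH 2 fell, Rsad2, also called viperin (-1.82 ± 0.28, limma adjusted p = 0.000272), and Ifi44 (-1.80 ± 0.45, adjusted p = 0.0115). The other 2 called rose, Oasl, a relative of the oligoadenylate synthetases (1.41 ± 0.39, adjusted p = 0.0226), and Ifi35 (0.83 ± 0.27, adjusted p = 0.0477, called in 7 of 17 alternatives). After AMPH both called genes fell, again Rsad2 (-1.70 ± 0.28, adjusted p = 0.00163) and Ifi44 (-1.69 ± 0.45, adjusted p = 0.0245). The probes of Rsad2 disagreed in size, and with their mean the differences were -0.73 and -0.99, still called (adjusted p = 0.0349 and 0.0104).

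Among the genes of interferon-gamma response and antigen processing, 1 was higher and 7 lower of 21 tested in blood after EIH. Of all genes 12.5% were called there. Ciita, the activator of MHC class II genes, fell by 1.39 ± 0.35 (adjusted p = 0.012), and the chemokine Cxcl10 by 1.59 ± 0.52 (adjusted p = 0.0483), the latter called in 4 of 17 alternatives. The other 5 that fell, by 0.50 to 0.97, were the immunoproteasome genes Psmb10 and Psmb8, the proteasome activator genes Psme1 and Psme2, and the protease gene Casp1. Psmb8 and Casp1 were each called in 5 of 17 alternatives. The GTPase Igtp rose by 1.10 ± 0.32 (adjusted p = 0.0285). After AMPH 2 of 21 were lower, a share close to the 8.37% of all genes called. They were Psme1 (-0.88 ± 0.18, adjusted p = 0.0061) and Psme2 (-0.69 ± 0.20, adjusted p = 0.0369). Of 12 receptor and signalling genes, 1 rose after each treatment, a share not above these backgrounds of 12.5% and 8.37%. After EIH it was Socs3, the feedback inhibitor of cytokine receptors (2.25 ± 0.61, adjusted p = 0.0186), and after AMPH Ifngr2, a chain of the interferon-gamma receptor (0.78 ± 0.21, adjusted p = 0.0235). Of 9 sensors and inducers 1 was called, a share close to the 12.5% of all genes after EIH. It was Irf3, lower after EIH (-1.11 ± 0.26, adjusted p = 0.00642). Of 8 listed interferon genes 2 were measured and 0 called, and of 4 genes of Isg15 conjugation 0 were called.

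At 1 day in blood 0 of 79 pathway genes were called after EIH, and 2 were higher after AMPH, Ifngr1 (1.62 ± 0.34, adjusted p = 0.0209) and Ifngr2 (0.82 ± 0.21, adjusted p = 0.0453, called in 5 of 17 alternatives), where 1.95% of all genes were called. Summed neutrophil markers were then 25555 to 71726 in AMPH rats against 6147 to 24754 in saline rats, and monocyte and macrophage markers 54052 to 76867 against 31108 to 43238, with no overlap. Their part in the result was not tested. The EIH effect in blood was higher at 1 day than at 3 h for 5 pathway genes, led by Ciita (2.07, adjusted p = 0.0172) and Irf3 (1.31, adjusted p = 0.0319), and lower for Igtp (-1.83, adjusted p = 0.0196), where 8.62% of all genes were called. In saline rats 6 of 78 pathway genes were higher and 53 lower in choroid plexus than in blood, with a median of -1.35 beside 0.15 over all genes, of which 56.2% were called (3162 higher and 2414 lower). The EIH effect at 3 h differed between tissues for 3 pathway genes, where 6% of all genes were called. For Rsad2, Irf3 and Psme1 it was higher in choroid plexus than in blood (by 1.89, 1.07 and 0.87). For AMPH it differed for Rsad2 (1.57), the exonuclease gene Isg20 (1.15), Psme1 (0.88) and Ifngr2 (-0.92), where 3.11% were called. Without the pools that share a rat number, 2 pathway genes were called for EIH, Rsad2 and Psme1, and 1 for AMPH, Rsad2. For Rsad2 the EIH value was 0.83 and not called with the mean over its probes (adjusted p = 0.414), and the AMPH value was 0.70 (adjusted p = 0.539).

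**Figure D3:**
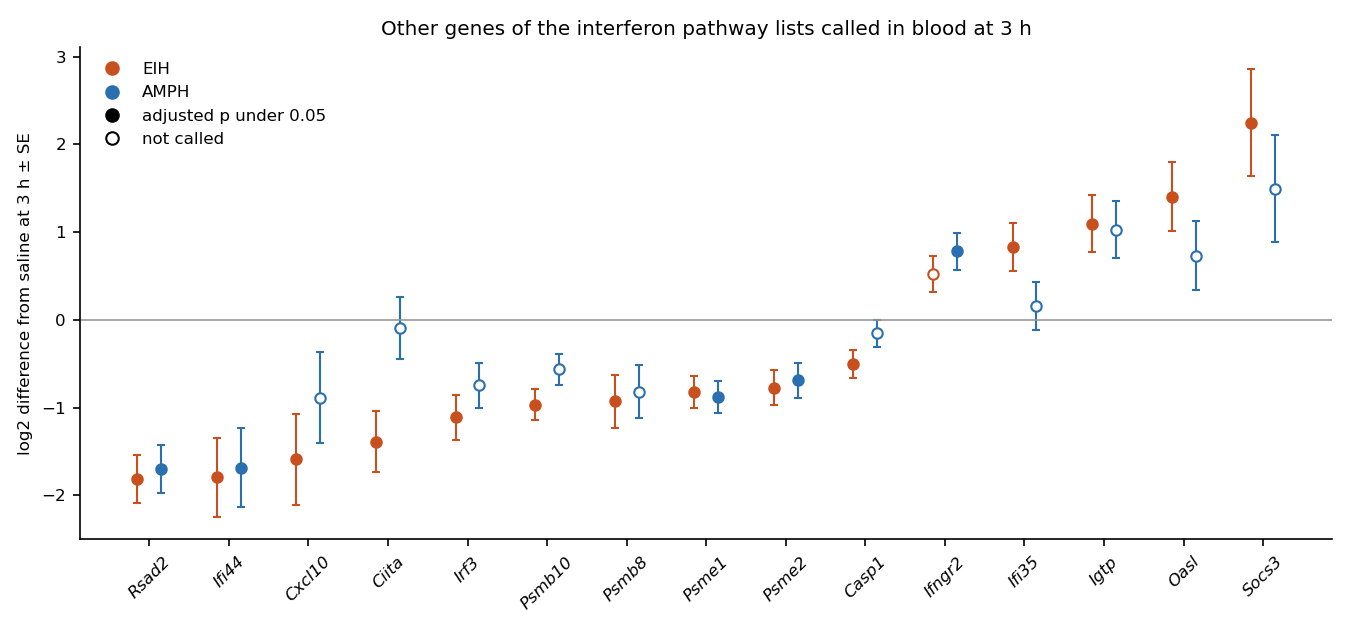
Log2 difference from saline in blood at 3 h with its standard error (vertical axis) for the 15 pathway genes called after EIH (orange) or AMPH (blue), ordered by the EIH difference. Filled points passed an adjusted p of 0.05. Rsad2 and Ifi44 are lowest after both treatments and Socs3 is highest.

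Blood cell markers moved at the same time as Mx1. Of 7 T cell markers tested, 7 were lower after EIH (median -2.23, Cd8a -2.23 ± 0.29) and 7 after AMPH (median -2.01). The summed level of the 8 measured ran from 22349 to 28060 in saline rats, 5177 to 13515 after EIH and 6424 to 14336 after AMPH, with no overlap, and 21567 to 29689 and 22968 to 30026 in saline and EIH rats of 1 day. After AMPH at 1 day it was 9554 to 18698. B cell markers were lower for 2 of 4 after EIH and 1 of 4 after AMPH (summed 3063 to 4555, 1313 to 2623 and 1538 to 2670). Neutrophil markers were higher for 4 of 7 after each treatment (summed 20775 to 34260, 40466 to 83256 and 68076 to 108834), and monocyte and macrophage markers for 4 of 10 after EIH and 2 of 9 after AMPH. Erythroid markers were called for 0 of 7 after EIH and 1 of 7 after AMPH. They summed to 179731 to 187368 after AMPH against 188587 to 195965 in saline rats. Of 8 markers of plasmacytoid dendritic cells, which make type I interferon, 3 were measured and 0 called. Their summed level was 1095 to 1383 in saline rats, 1364 to 2272 after EIH and 1617 to 1995 after AMPH. The AMPH and saline rats did not overlap, and 2 of the 3 markers were higher on average after each treatment. Whether the shift in these markers has a part in the Mx1, Mx2, Bst2, Irf1 and pathway differences was not tested. Natural killer cell markers were called for 0 of 6 after EIH and 1 of 6 after AMPH, and platelet markers for 0 of 4 after either. The natural killer cell markers summed to 4337 to 6767 in saline rats and 3604 to 7733 after EIH. After AMPH the sum was 2674 to 4146, with 1 blank cell. Stromal and meningeal markers in blood at 3 h summed to 2431 to 3591 in saline rats and 5910 to 9475 after EIH. After AMPH they summed to 3984 to 11690, and neither treatment overlapped saline. Epithelial markers summed to 8670 to 12412, 14266 to 17368 and 5099 to 17389 in the same order. Of the epithelial markers 0 of 9 tested were called after EIH and 1 of 10 after AMPH. Both lists had blank cells, which the sums leave out. Their part in the result was not tested. In choroid plexus the summed T cell markers were 263 to 824.

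**Figure D4:**
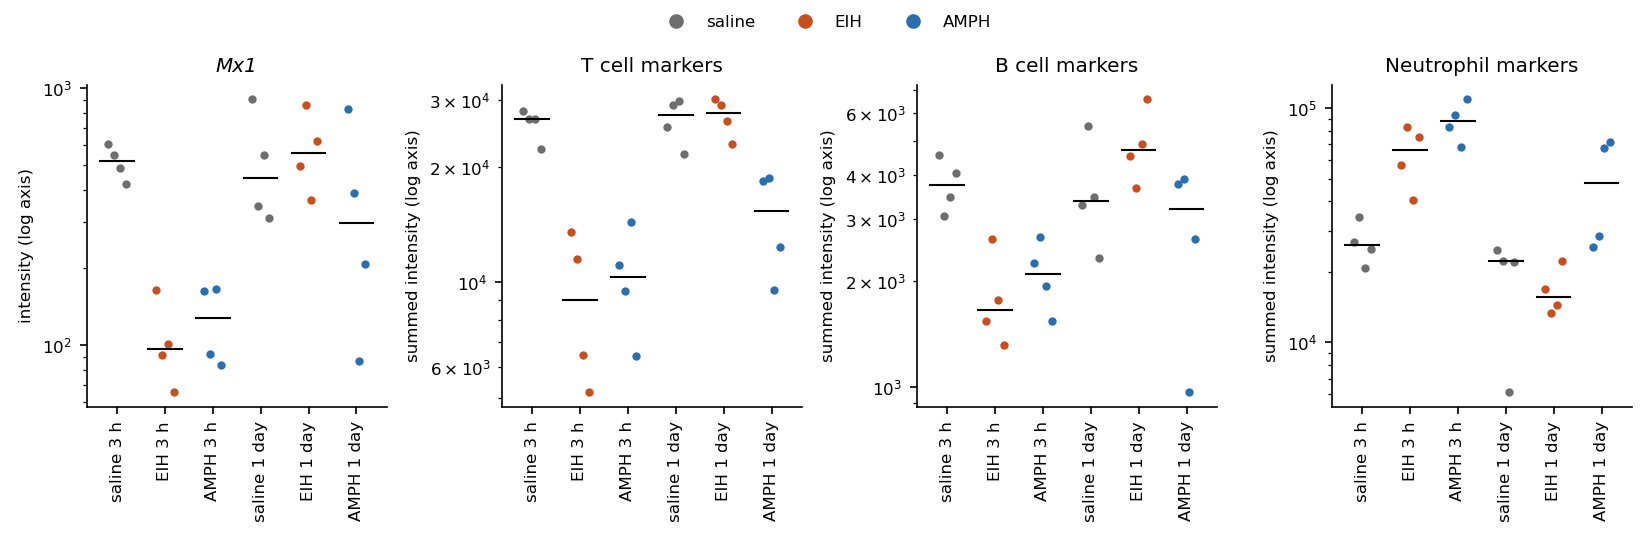
Intensity of Mx1 and summed intensity of T cell, B cell and neutrophil markers on each blood array (log vertical axes), by treatment and time, with bars at group medians. Mx1 and the T cell markers are lower at 3 h after EIH and AMPH, with T cell sums of 5177 to 14336 against 22349 to 28060 in saline, while neutrophil markers are higher.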

How the data were processed

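The deposited values are intensities on a linear scale, in 1 table of 14055 probes by 44 arrays. Per the labels' protocols the RNA came from Tri Reagent extraction and carried Cy3. How the authors normalized, background-corrected and blanked cells is not given in the sources used here. The rat numbers show that some arrays share animals, and nothing else says how far samples are independent. The p-values rest on the spread between arrays taken as independent, save in the fits with a block. Shared rats may make that spread too small. Medians lay close within each time and differed between times, so comparisons across times may mix time with scaling. Blank cells stayed missing.

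Of the probes 12926 had 1 gene symbol, giving 10412 genes, and the brightest probe stood for a gene. Log2 values were fitted with limma 3.58.1 (R 4.3.3) with a mean per group, over 20 choroid plexus or 24 blood arrays, over the 8 saline arrays of 3 h for the tissues, and over all 44 for differences between tissues in an effect. A gene needed 2 values in each compared group. Adjusted p-values are Benjamini-Hochberg values over all genes tested in a comparison. The fit was tested on simulated data. With 4 arrays per group their number limits the precision. Alternatives were other scalings, a filter on the dimmest 25% of genes, other variance models, array weights, fewer groups, the mean over probes, arrays that share a rat as a block, and leaving out arrays. The 7 members, pathway lists and marker lists were chosen with earlier results of these data known. All 7 members are named, and up to 4 called pathway genes per comparison by size. The remaining pathway genes and the markers Cd8a and Cd14 were named after their values were seen. Named neighbours are the 5 genes of highest correlation, without predicted loci. Figures were drawn with matplotlib 3.10.9.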

Additional observations from a re-analysis of the deposited data

Results flagged for a closer look

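In 3 of 73 sets of 4 arrays, 1 member value per group each, a single array lay far from the other 3, where chance alone would mark about 1 in 20. Irf1 after AMPH at 3 h in choroid plexus read 8.29 on replicate 2 and 7.69 to 7.74 on the others. Irf7 after EIH at 3 h in blood read 15.05 on replicate 4 and 15.68 to 15.78 on the others. Isg15 after AMPH at 1 day in blood read 12.21 on replicate 2 and 13.52 to 13.75 on the others. The EIH effect on Mx1 in blood differed between 1 day and 3 h by 2.57 (limma adjusted p = 0.032), with Mx1 below saline on all 4 EIH arrays at 3 h and overlapping it at 1 day.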

How the results depend on the processing

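For 90 differences of members and named pathway genes, 1578 of 1800 alternative values kept their direction and their side of the threshold, 183 lost a call, 24 gained one and 15 changed sign. Among the 1800 values are exact permutation tests of single members, read unadjusted against p = 0.05. Some of the 24 gains came from that test and are no calls by adjusted p. The sign changes were all in values near 0. In blood after AMPH at 3 h, leaving out 1 rat gave -0.064 to 0.275 for Irf7, -0.047 to 0.356 for Irf1 and -0.146 to 0.227 for Isg15, which was -0.012 with array weights. Mx1 after EIH at 1 day in blood became -0.049 with array weights. Mx2 between the tissues in saline became 0.003 with equal medians, 0.279 with array weights and 0.249 without pools that share a rat number, and ran from -0.409 to 0.249 without an array. The number of members called was as follows. For EIH at 3 h in choroid plexus it was 1, but 0 with only the compared groups, only the 3 h arrays, or without pools that share a rat number, and 0 to 1 without an array. For AMPH it was 0, but 1 without the dimmest 25% of genes or with an intensity trend and robust spread, 2 with array weights, and 0 to 1 without an array. In blood it was 2 to 3 for EIH and 0 to 3 for AMPH without an array. The change of the EIH effect with time gave 2 with array weights and 0 to 1 without a rat. The tissue difference of the EIH effect gave 1 with array weights, only the compared groups, only the 3 h arrays or the random replicate block, and 0 to 1 without an array, and that of AMPH gave 2 with only the 3 h arrays. The fits with only the 3 h arrays, and those that leave out the AMPH pool of 1 day that stands apart, were chosen after seeing the data. Over all genes, those called for EIH at 3 h ranged from 0 to 957 in choroid plexus (35 as reported) and 802 to 1778 in blood (1232), and for AMPH from 0 to 1212 (16) and 425 to 1441 (826). In blood at 3 h 8 to 22 pathway genes were called for EIH and 2 to 16 for AMPH. Replicate numbers pair no samples. The random block of shared rats was fitted for the comparisons between tissues alone, where among the member differences given it changed the call of Mx1 for EIH only.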
